A study of Mus musculus with 6 samples.

Results

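Crym, the gene of the thyroid hormone-binding protein mu-crystallin, and 5 other genes that handle thyroid hormone were followed in RNA pulled down from mouse retina. The other 5 were Slco1c1 (a membrane carrier of thyroid hormone), Dio2 and Dio3 (the activating and the inactivating deiodinase) and Thra and Thrb (the nuclear receptors). The 6 genes were found by symbol among the 55335 genes of the count table, and all 6 passed the filter on low counts that left 17687 genes for testing. They were chosen by the counts of Crym, selected on its large rise in the same SOHU and naive libraries, so the values of Crym are given as a description and with no test. The other 5 were listed for their function, with earlier results of these data known.

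The study asked how RNA of retinal ganglion cells, the output neurons of the retina, differs between SOHU and naive eyes. There were 3 libraries from SOHU retinas, in which silicone oil had been placed in the front chamber of the eye 1 week before harvest, and 3 from naive retinas. SOHU is a form of silicone oil-induced ocular hypertension, a mouse model of glaucoma. Both groups were labelled C57BL/6, wild type, aged 10 weeks, and their RNA came from whole homogenized retinas by pulldown with an anti-HA antibody. The labels do not say which protein carries the HA tag or in which cells it is made, and the note on the oil injection stands on the naive samples as well. No label ties the replicates to different animals, so the p-values measure the spread between these libraries, which may be technical.

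Thyroid hormone reaches cells mainly as thyroxine, which membrane carriers take up and outer-ring deiodination turns into the more active triiodothyronine, while inner-ring deiodination inactivates both. Triiodothyronine binds nuclear receptors that pair with retinoid X receptors and sit on target genes with corepressors or coactivators. Mu-crystallin binds triiodothyronine in the cytoplasm with NADPH as cofactor and is also a ketimine reductase, an enzyme linked to the breakdown of lysine through pipecolate. In the retina, thyroid hormone is best known for setting cone opsin identity through Thrb, and Dio2 and Slco1c1 are known in the brain from glia and, for Slco1c1, from blood vessel cells.

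The coding sequences below show what sets the members apart. The gene of Crym lies at chr7:120186380-120202111 on the minus strand of mm10 and shares no exon bases with another annotated gene. Its coding transcript has 313 codons over 8 exons, and the coding part of the first exon, at chr7:120201755-120201924, minus strand, is given 5′ to 3′ with the start codon in capitals to show where the protein begins.
Crym: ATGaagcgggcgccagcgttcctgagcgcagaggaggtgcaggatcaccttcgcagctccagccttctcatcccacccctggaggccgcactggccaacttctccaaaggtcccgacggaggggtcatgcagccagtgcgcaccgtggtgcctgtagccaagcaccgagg

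The deiodinases are selenoproteins: a TGA codon inside the reading frame is read as selenocysteine, the residue of the active site. Windows of 63 bases around that codon, with the TGA in capitals, are given for both member deiodinases and for Dio1, the one deiodinase gene that passed the test. The windows lie at chr4:107297670-107297732, minus strand, for Dio1, at chr12:90729793-90729855, minus strand, for Dio2, and at chr12:110279709-110279771, plus strand, for Dio3 (mm10).
Dio1: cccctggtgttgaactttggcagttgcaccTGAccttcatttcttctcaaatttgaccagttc
Dio2: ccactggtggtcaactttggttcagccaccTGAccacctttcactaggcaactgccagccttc
Dio3: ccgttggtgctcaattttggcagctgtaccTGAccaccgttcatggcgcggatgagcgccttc
The TGA was codon 126 of 257 in Dio1, codon 130 of 266 in Dio2 and codon 170 of 304 in Dio3, and Dio2 had another in-frame TGA at codon 263. Of the 63 bases, 41 were identical between Dio2 and Dio3, 37 between Dio1 and Dio3 and 36 between Dio1 and Dio2. The longest identical run between transcripts was 13 bases for Dio1 and Dio3, 12 for Dio1 and Dio2 and 11 for Dio2 and Dio3.

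Thra and Thrb encode near relatives. A stretch of 60 coding bases around their longest identical run, of 26 bases, shows how closely the genes resemble each other there. Whether reads were counted for the wrong gene was not tested. The stretch lies at chr11:98763545-98763604 in Thra and at chr14:18030159-18030218 in Thrb, both on the plus strand of mm10, and capitals mark the 6 bases that differ.
Thra: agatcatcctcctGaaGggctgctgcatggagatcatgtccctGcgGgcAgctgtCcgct
Thrb: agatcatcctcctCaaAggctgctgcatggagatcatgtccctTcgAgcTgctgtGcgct

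The 6 libraries held between 21691354 and 26824919 counts. Of the 17687 genes tested with the edgeR quasi-likelihood test, 2467 (13.9%) passed an adjusted p of 0.05, 1418 (8.02%) of them higher and 1049 (5.93%) lower in SOHU libraries, and over all of them the median log2 fold change was 0.01. No gene passed when naive library 1 or naive library 3 was left out. The groups did not overlap for 6905 genes (39.0%). The labelled cell type was checked by its markers: the 11 ganglion cell markers together took 0.152%, 0.152% and 0.215% of counts in SOHU libraries 1 to 3, against 0.526%, 0.313% and 0.371% in naive libraries, and 10 of the 11 were lower. The 11 Müller glia and astrocyte markers took 3.33%, 2.55% and 1.88% in SOHU libraries, against 1.05%, 1.34% and 1.24% in naive libraries, and 8 of the 11 were higher. All libraries therefore held more counts of glial than of ganglion cell markers, and in such bulk samples fewer cells of a type cannot be told apart from less RNA per cell.

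Crym, which binds triiodothyronine in the cytoplasm, was the member whose groups lay farthest apart. It had 141338, 78461 and 48552 counts in SOHU libraries 1 to 3, against 12584, 19023 and 11287 counts in naive libraries 1 to 3. Scaled to library size after TMM normalization (CPM), these were 5872, 3518 and 1973 CPM in SOHU libraries, against 484.5, 817.4 and 499.1 CPM in naive libraries. Every SOHU library lay above every naive one, and the lowest SOHU library still had 2.41 times the CPM of the highest naive library. The means were 3788 ± 1963 CPM in SOHU libraries and 600.3 ± 188.1 CPM in naive libraries (SD, n = 3 each), a log2 fold change of 2.66 with a standard error of 0.38, or 6.31-fold. The SOHU libraries differed among themselves by more than the naive ones, with coefficients of variation of 51.8% in SOHU and 31.3% in naive libraries.

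The single gene took a visible part of the SOHU libraries. Crym held 0.553%, 0.362% and 0.205% of all counts in SOHU libraries 1 to 3, against 0.0469%, 0.0822% and 0.0506% in naive libraries. By CPM it ranked 5, 6 and 19 among all genes in SOHU libraries 1 to 3, against 289, 106 and 231 in naive libraries. Of the 17687 genes tested, 28 had a larger log2 fold change. Among the 10929 genes that averaged a log2 CPM of 3 or more there were 2 such genes, and among the 39 genes at least as abundant as Crym, itself included, there was none. Crym was thus already an abundant RNA in naive libraries. Its log2 fold change was the largest among genes at or above its mean level over all libraries, a level that its SOHU values raised. The choice of the gene for its rise fixed this place in part.

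**Figure D1:**
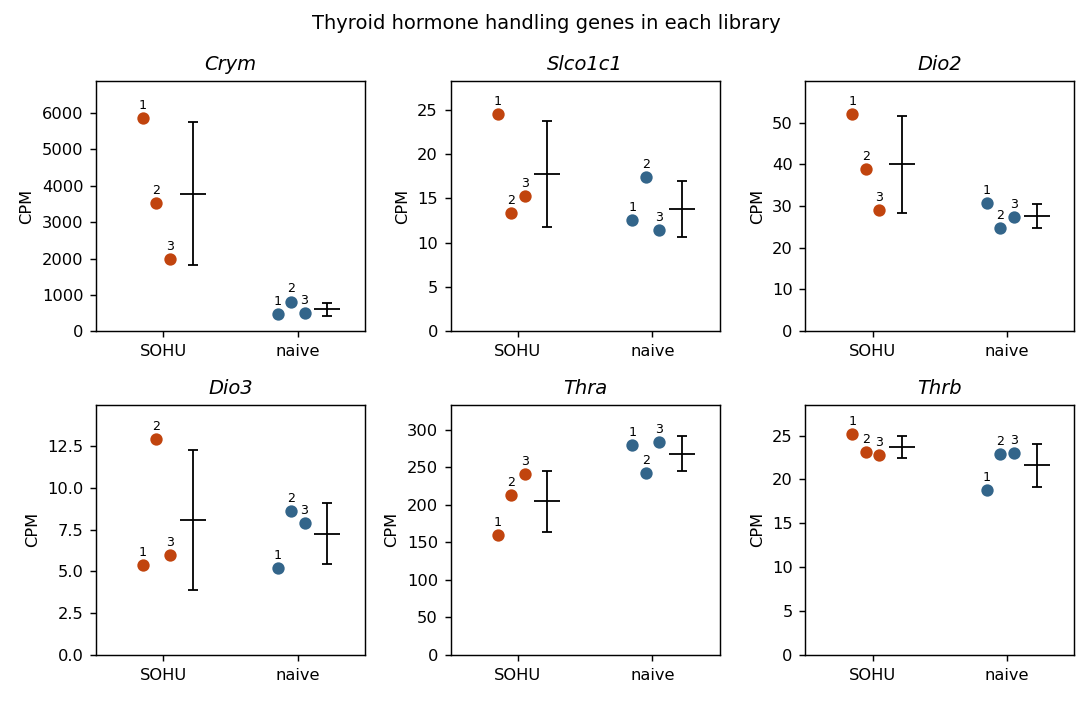
The CPM (y axis, linear, from 0) of the 6 genes in SOHU libraries (left, orange) and naive libraries (right, blue); points are libraries with their replicate numbers, and the bar is the mean with 1 SD. Crym shows SOHU libraries of 1973 to 5872 CPM against naive libraries of 484.5 to 817.4 CPM, Thra shows lower SOHU points without overlap, and the groups overlap for Slco1c1, Dio2, Dio3 and Thrb.

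To compare levels between genes, counts were divided by the deposited exon length and scaled to the sum of such values in a library (TPM). In SOHU libraries the order of mean levels was Crym at 3239 ± 1542 TPM, Thra at 131.3 ± 31.5, Dio2 at 20.1 ± 4.95, Dio3 at 11.8 ± 6.23, Slco1c1 at 9.96 ± 2.93 and Thrb at 9.41 ± 0.115 TPM (SD, n = 3 each). In naive libraries it was Crym at 531.8 ± 181.0 TPM, Thra at 173.6 ± 11.8, Dio2 at 14.1 ± 1.07, Dio3 at 10.7 ± 2.96, Thrb at 8.73 ± 1.22 and Slco1c1 at 7.95 ± 2.02 TPM (SD, n = 3 each). Crym and Thra stood above the rest in every library, while Dio3, Slco1c1 and Thrb had ranges that overlapped in both groups and cannot be put in order. The exon length of Crym includes a retained-intron transcript and is 2.45 times the length of its coding transcript. The hormone-binding protein's RNA was above that of its receptors everywhere: the ratio of Crym to Thra in TPM was 49.9, 22.5 and 11.2 in SOHU libraries, against 2.36, 4.59 and 2.40 in naive libraries. Crym also exceeded the summed TPM of the other 5 members 31.8, 16.0 and 8.80 times in SOHU libraries, against 1.95, 3.58 and 1.95 times in naive libraries.

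None of the other 5 members passed the edgeR test, where the background of calls was 13.9% of genes; 2 of them, Dio2 and Thra, had an unadjusted p under 0.05, and DESeq2 and limma-voom likewise called none of the 5, with 2 under that unadjusted p each. The groups did not overlap for 1 of the 5, Thra, against 39.0% of all genes tested. The intervals given for these genes are 95% intervals of the single gene, not adjusted for the number of genes, and a p that misses the threshold does not show that the levels were alike.

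Slco1c1 (chr6:141524368-141570177, plus strand), the carrier that prefers thyroxine, had 24.5, 13.3 and 15.3 CPM in SOHU libraries 1 to 3, against 12.5, 17.4 and 11.4 CPM in naive libraries. SOHU library 1 was the highest, and the other two SOHU libraries lay inside the naive range. The means were 17.7 ± 5.98 CPM in SOHU libraries and 13.8 ± 3.17 CPM in naive libraries (SD, n = 3 each), a log2 fold change of 0.36 with an interval from -0.22 to 0.95 (edgeR adjusted p = 0.376). Without SOHU library 1 the log2 fold change of Slco1c1 was 0.05 (adjusted p = 0.903).

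Dio2 (chr12:90724552-90738438, minus strand), which turns thyroxine into triiodothyronine inside cells, had 52.1, 38.8 and 29.0 CPM in SOHU libraries 1 to 3, against 30.6, 24.8 and 27.3 CPM in naive libraries. SOHU libraries 1 and 2 lay above all naive libraries and SOHU library 3 lay among them. The means were 40.0 ± 11.6 CPM in SOHU libraries and 27.6 ± 2.94 CPM in naive libraries (SD, n = 3 each), a log2 fold change of 0.54 with an interval from 0.06 to 1.01 (edgeR adjusted p = 0.117). The log2 fold change of Dio2 was 0.29 without SOHU library 1 (adjusted p = 0.274) and 0.74 without SOHU library 3 (adjusted p = 0.0203). Dio2 shares 100 exon bases, 1.72% of its exon length, with Gm26512 on the opposite strand, and whether the counting used strand is not given in the sources used here.

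Dio3 (chr12:110279068-110281097, plus strand), which inactivates thyroxine and triiodothyronine, had 5.36, 12.9 and 5.97 CPM in SOHU libraries 1 to 3, against 5.20, 8.64 and 7.91 CPM in naive libraries. The highest value was in SOHU library 2 and the lowest in naive library 1, and the groups overlapped. The means were 8.08 ± 4.20 CPM in SOHU libraries and 7.25 ± 1.81 CPM in naive libraries (SD, n = 3 each), a log2 fold change of 0.16 with an interval from -0.63 to 0.94 (edgeR adjusted p = 0.798). The log2 fold change of Dio3 was -0.34 without SOHU library 2 and -0.05 without naive library 1. The ratio of Dio2 to Dio3 in TPM, activating over inactivating enzyme, was 3.40, 1.05 and 1.69 in SOHU libraries, against 2.06, 1.00 and 1.20 in naive libraries. The 2 groups of ratios overlapped.

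Thra (chr11:98740638-98769006, plus strand), the receptor gene with the higher level in these libraries, had 160.2, 212.7 and 240.7 CPM in SOHU libraries 1 to 3, against 279.8, 242.1 and 283.3 CPM in naive libraries. All SOHU libraries lay below all naive ones, though SOHU library 3 and naive library 2 were nearly equal. The means were 204.5 ± 40.9 CPM in SOHU libraries and 268.4 ± 22.8 CPM in naive libraries (SD, n = 3 each), a log2 fold change of -0.39 with an interval from -0.76 to -0.03 (edgeR adjusted p = 0.136). Ganglion cell markers were lower in the same libraries, and scaled to those markers the log2 fold change of Thra was 0.72 (edgeR adjusted p = 0.0310), with the median of all genes at 1.13 under that scaling. The part of the markers in its values was not tested further. Thra shares 263 exon bases, 5.70% of its exon length, with Nr1d1 on the opposite strand, which had 148.6 CPM in SOHU and 169.7 CPM in naive libraries. The gene count also sums the hormone-binding receptor and the splice form that does not bind triiodothyronine.

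Thrb (chr14:17660261-18038090, plus strand), the receptor known for its role in cone opsin choice, had 25.1, 23.1 and 22.8 CPM in SOHU libraries 1 to 3, against 18.8, 22.9 and 23.0 CPM in naive libraries. The values were close together apart from naive library 1, which was the lowest. The means were 23.7 ± 1.26 CPM in SOHU libraries and 21.6 ± 2.43 CPM in naive libraries (SD, n = 3 each), a log2 fold change of 0.13 with an interval from -0.21 to 0.48 (edgeR adjusted p = 0.591). The ratio of Thra to Thrb in TPM was 10.2, 14.7 and 16.9 in SOHU libraries, against 23.9, 16.9 and 19.7 in naive libraries. SOHU library 3 and naive library 2 met at the border between the groups of ratios.

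The wider pathway was followed in 57 further genes, chosen with earlier results of these data known, of which 51 were tested. Of these, 7 (13.7%) rose and 1 (1.96%) fell in SOHU libraries, against 8.02% and 5.93% of all genes tested; 43 did not pass, and the median log2 fold change was 0.06. The genes that rose were in 4 of the lists: hormone carriers (Slc7a8 and Slc3a2), the deiodinase Dio1, lysine breakdown (Aass, Aldh7a1 and Pipox) and hormone targets (Aldh1a1). The gene that fell was the target Shh. All 8 calls were lost when SOHU library 2, naive library 1 or naive library 3 was left out, with adjusted p-values of 0.0509 to 0.154 over these 3 fits, so none of them holds in every set of 5 libraries. Over all genes, 336 were called without SOHU library 2.

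**Figure D2:**
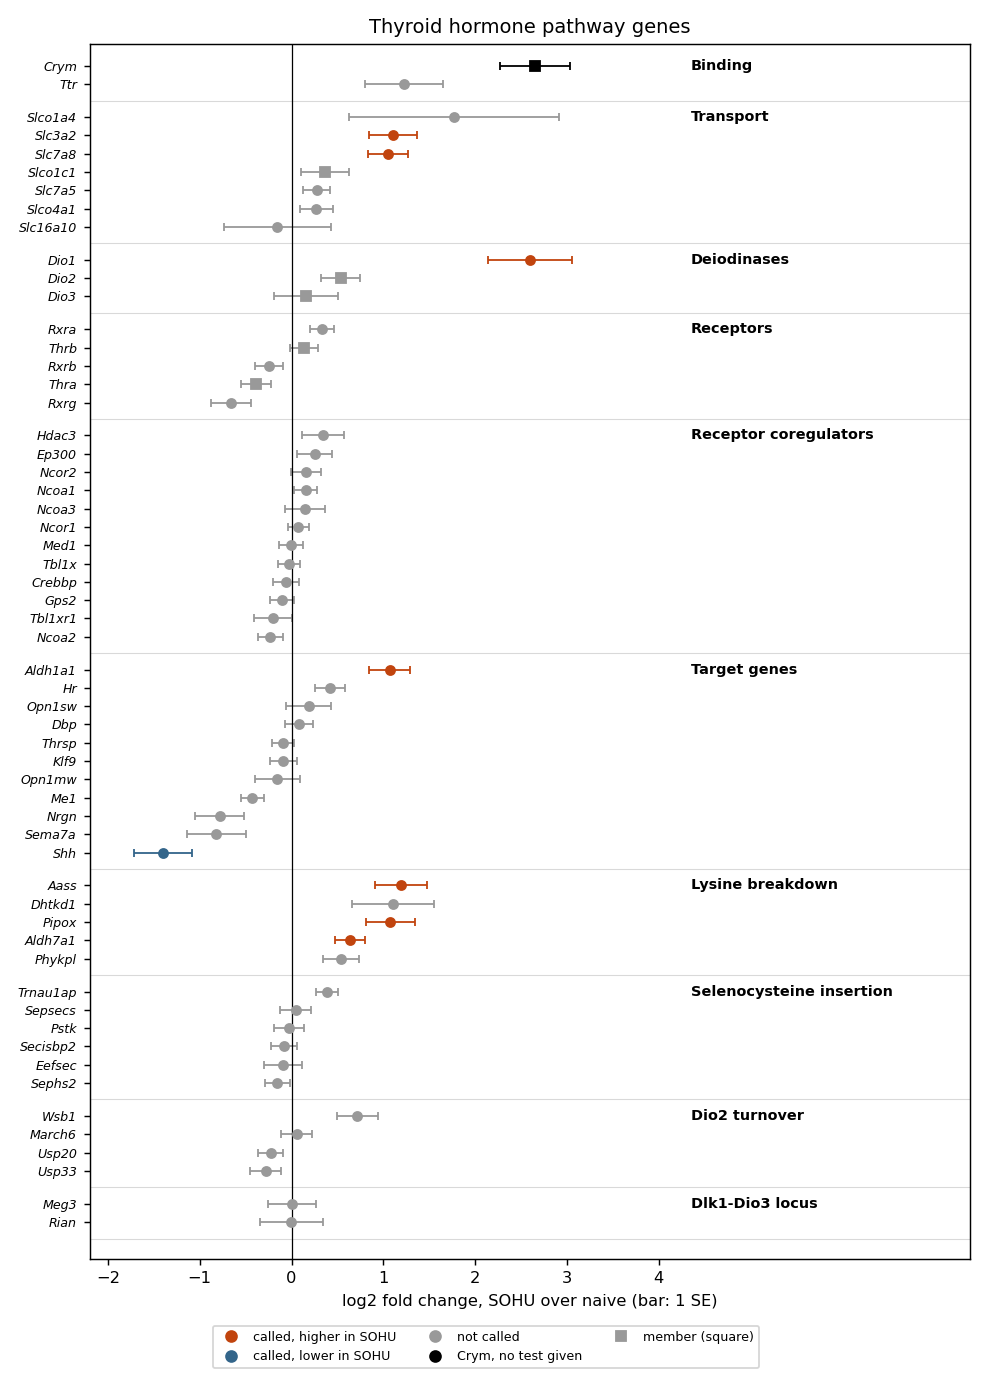
The log2 fold change of SOHU over naive libraries (x axis; bar, 1 standard error) for the tested genes of each list, with squares for the 6 members, orange for genes called higher, blue for Shh, called lower, grey for genes not called and black for Crym, given without a test. Dio1 at 2.60 and Crym at 2.66 lie farthest to the right, and the receptors, coregulators and selenocysteine genes are all grey, between -0.66 for Rxrg and 0.39 for Trnau1ap.

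Dio1 (chr4:107291465-107307169, minus strand) was the deiodinase that rose. It had 218, 112 and 61 counts in SOHU libraries 1 to 3, against 23, 21 and 21 counts in naive libraries, or 9.06, 5.02 and 2.48 CPM in SOHU libraries, against 0.886, 0.902 and 0.929 CPM in naive libraries. The naive libraries were nearly equal, and all SOHU libraries lay above them. The means were 5.52 ± 3.32 CPM in SOHU libraries and 0.905 ± 0.0217 CPM in naive libraries (SD, n = 3 each), a log2 fold change of 2.60 with a standard error of 0.46 (edgeR adjusted p = 0.0128). Per length it stayed at a low level, with 8.10 ± 4.54 TPM in SOHU libraries and 1.37 ± 0.0654 TPM in naive libraries, below the mean TPM of Dio2 in both groups.

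Among the 6 carriers tested beside Slco1c1, 2 (33.3%) rose and none fell, against 8.02% and 5.93% of all genes tested. The median log2 fold change of these carriers was 0.66. Slc7a8, an amino acid carrier that also moves thyroid hormones, had 199.2, 132.1 and 109.5 CPM in SOHU libraries, against 60.6, 80.5 and 72.2 CPM in naive libraries, a log2 fold change of 1.05 with a standard error of 0.22 (edgeR adjusted p = 0.0180). Slc3a2, its heavy chain partner, had 507.2, 304.8 and 237.6 CPM in SOHU libraries, against 131.2, 183.5 and 172.4 CPM in naive libraries, a log2 fold change of 1.11 with a standard error of 0.26 (adjusted p = 0.0251). In both genes every SOHU library lay above every naive library, and SOHU library 1 was the highest. The groups did not overlap for 3 of these 6 carriers (50%), against 39.0% of all genes tested. Slc7a5, another light chain that pairs with Slc3a2, had a log2 fold change of 0.28 and did not pass (edgeR adjusted p = 0.231).

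The lysine list holds enzymes of lysine breakdown, not only of the pipecolate route to which the ketimine reductase activity of mu-crystallin is linked. Of its genes, 5 were tested and 3 (60%) rose, against 8.02% of all genes tested. Aass, the first enzyme of the saccharopine route, had 14.3, 8.03 and 7.52 CPM in SOHU libraries, against 3.70, 4.77 and 4.55 CPM in naive libraries, a log2 fold change of 1.20 with a standard error of 0.28 (edgeR adjusted p = 0.0264). Pipox, which oxidizes pipecolate, had 13.5, 9.28 and 6.91 CPM in SOHU libraries, against 5.16, 4.64 and 4.24 CPM in naive libraries, a log2 fold change of 1.08 with a standard error of 0.27 (adjusted p = 0.0302). Aldh7a1, the dehydrogenase on which both routes meet, had 123.4, 88.8 and 84.7 CPM in SOHU libraries, against 59.2, 68.2 and 63.4 CPM in naive libraries, a log2 fold change of 0.64 with a standard error of 0.17 (adjusted p = 0.0347). For each of the 5 tested genes of the list the groups did not overlap, against 39.0% of all genes tested. The list was chosen with earlier results of these data known, so this count is a description. Dhtkd1 at 1.11 and Phykpl at 0.54 on the log2 scale did not pass. Aldh7a1 shares 300 exon bases, 5.79% of its exon length, with Phax on the opposite strand.

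Among 11 genes listed as thyroid hormone targets, 1 (9.09%) rose and 1 (9.09%) fell, against 8.02% and 5.93% of all genes tested. The median log2 fold change of the targets was -0.09. Aldh1a1, a retinaldehyde dehydrogenase of the retina, had 744.4, 517.1 and 410.0 CPM in SOHU libraries, against 214.5, 309.7 and 270.5 CPM in naive libraries, a log2 fold change of 1.07 with a standard error of 0.22 (edgeR adjusted p = 0.0182). Shh, a signalling protein that ganglion cells make, had 1.20, 1.48 and 1.38 CPM in SOHU libraries, against 4.85, 2.84 and 3.05 CPM in naive libraries, a log2 fold change of -1.40 with a standard error of 0.32 (adjusted p = 0.0232). Shh shares 446 exon bases with the opposite-strand gene 9530036O11Rik, which had 0, 1 and 19 counts in SOHU libraries, against 27, 12 and 11 counts in naive libraries. Thrsp, the listed target with the highest mean TPM, had 254.7 ± 7.99 TPM in SOHU libraries and 275.5 ± 3.06 TPM in naive libraries (SD, n = 3 each) and a log2 fold change of -0.09 (adjusted p = 0.642). The classical target Klf9 likewise had a log2 fold change of -0.09 (adjusted p = 0.710), and the cone opsin genes had 0.19 for Opn1sw and -0.16 for Opn1mw, neither of which passed. The groups did not overlap for 6 of the 11 targets (54.5%), against 39.0% of all genes tested. Beside Aldh1a1 and Shh the 6 held Hr at 0.42, Me1 at -0.43, Nrgn at -0.78 and Sema7a at -0.82 on the log2 scale. None of Hr, Me1, Nrgn and Sema7a passed (edgeR adjusted p = 0.0515 to 0.120).

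In the edgeR fit to all 6 libraries, none of the remaining pathway genes was called, against 13.9% of all genes tested. None of the 3 retinoid X receptor genes passed, with log2 fold changes of 0.33 for Rxra, -0.24 for Rxrb and -0.66 for Rxrg. None of the 12 coregulators passed, with a median log2 fold change of 0.04, and Hdac3, the one with the highest mean TPM, had 0.34 (edgeR adjusted p = 0.338). None of the 6 genes for inserting selenocysteine passed (median -0.05), and Trnau1ap, with the highest mean TPM, had 134.2 ± 5.47 TPM in SOHU libraries and 104.2 ± 5.05 TPM in naive libraries and a log2 fold change of 0.39 (adjusted p = 0.0652). None of the 4 genes for ubiquitination and deubiquitination of the Dio2 protein passed (median -0.09), and Wsb1, a ligase subunit with the highest mean TPM of the list, had 0.72 (adjusted p = 0.0604). The DESeq2 Wald test called both Trnau1ap (adjusted p = 0.0330) and Wsb1 (adjusted p = 0.0180), and so did the edgeR fit without SOHU library 3 (adjusted p = 0.0368 for Trnau1ap and 0.0205 for Wsb1). Meg3, the noncoding RNA of the imprinted region that holds Dio3, had a log2 fold change of 0.00 (adjusted p = 0.991). Of the carriers in blood plasma, Alb and Serpina7 had 0 counts in all 6 libraries, and Ttr, at 7.13 ± 3.73 CPM in SOHU libraries and 3.04 ± 0.842 CPM in naive libraries (SD, n = 3 each), had a log2 fold change of 1.22 and did not pass (adjusted p = 0.0815).

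Crym stood in the same library order as several marker lists. From high to low the libraries stood in the order SOHU 1, SOHU 2, SOHU 3, naive 2, naive 3 and naive 1, for the CPM of Crym, for the summed share of the 11 Müller glia and astrocyte markers and for the summed shares of the endothelial and microglial markers. The summed share of the amacrine and horizontal cell markers stood in the exact reverse order. That of the ganglion cell markers did so too, apart from SOHU libraries 1 and 2, which were nearly equal. Of the pathway genes that rose, Slc7a8, Slc3a2, Aass, Aldh7a1 and Aldh1a1 shared the order of Crym. Pipox and Dio1 did not: among naive libraries Pipox was highest in library 1 and Dio1 in library 3. The naive counts of Dio1 were only 21 to 23. Crym had a larger log2 fold change (2.66) than any of the 11 glial markers, which lay between 0.32 for Glul and 2.21 for Gfap. Dio1, at 2.60, lay above them too, while the other 6 pathway genes that rose, at 0.64 to 1.20, lay within that range. The sum of the 11 markers was weighted to Apoe, the most abundant of them in every library. Apoe had 9237 to 17862 CPM in SOHU libraries, against 4203 to 5546 CPM in naive libraries. The counts of Crym divided by the summed counts of the 11 markers were 0.166, 0.142 and 0.109 in SOHU libraries, against 0.0448, 0.0614 and 0.0407 in naive libraries, and the groups did not overlap. Crym was chosen for its rise, which fixed in part both this separation and its place above the glial markers. The part of these marker shares in the difference of Crym and of the pathway genes was not tested.

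**Figure D3:**
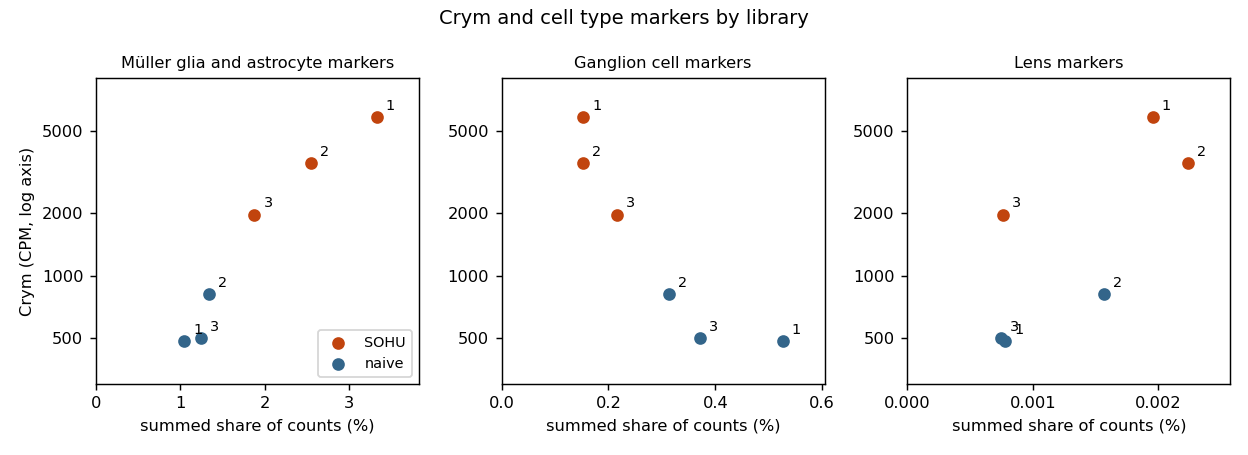
The CPM of Crym (y axis, log scale) against the summed share of counts (x axis, percent, linear) of Müller glia and astrocyte, ganglion cell and lens markers in each library, with SOHU in orange, naive in blue and replicate numbers beside the points. Crym and the glial share put the libraries in the same order, the ganglion cell share is 0.152% to 0.215% in SOHU libraries against 0.313% to 0.526% in naive libraries, and the lens shares of the groups overlap.

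Markers of other retinal cells were read beside Crym. Over all genes tested, 8.02% were called higher and 5.93% lower. Endothelial markers took 0.0718% to 0.0952% of counts in SOHU libraries, against 0.0329% to 0.0375% in naive libraries; 2 of the 3 tested of 6 were higher, and Cdh5 and Tie1 were at 0 in at least 1 library. Nearly all of that share was Kdr, at 561.5 to 855.4 CPM in SOHU against 269.5 to 300.9 CPM in naive libraries, and Flt1. Pecam1, not tested, had 0.122 to 0.374 CPM in SOHU against 0.221 to 0.559 CPM in naive libraries, and Tie1 had 0 to 0.203 CPM in SOHU against 0.154 to 0.430 CPM in naive libraries. Microglial markers took 0.00176% to 0.00519% in SOHU libraries, against 0.00041% to 0.00146% in naive libraries, and 3 of the 6 tested of 7 were higher. Amacrine and horizontal cell markers took 0.099% to 0.189% in SOHU libraries, against 0.292% to 0.340% in naive libraries, and 3 of 9 were lower. The remaining lists overlapped between the groups: rods with 0.336% to 0.563% in SOHU against 0.386% to 0.464% in naive libraries, cones with 0.0115% to 0.0153% against 0.00884% to 0.0150%, and bipolar cells with 0.0220% to 0.0482% against 0.0394% to 0.0554%, with no marker of these 3 lists called. Lens markers, of interest because mu-crystallin is a lens protein in marsupials, took at most 0.00224% in SOHU and 0.00157% in naive libraries; Mip and Lim2 were at 0 in at least 1 library, and 1 of the 5 tested of 7 (Bfsp2) was higher. Pigment epithelium markers took 0.00106% to 0.00251% in SOHU and 0.00107% to 0.00122% in naive libraries, with none of the 2 tested of 5 called and Rpe65 and Tyr at 0 in at least 1 library.

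The genes most like Crym were taken by Pearson's r of log2 CPM over the 6 libraries, among 10472 genes that averaged a log2 CPM of 3 or more and carry a gene symbol that is not a predicted or clone name. They were Ddr1 (a collagen receptor kinase, r = 0.999), Tax1bp3 (a PDZ protein), Cited1 (a transcription coregulator), Gulp1 (an engulfment adaptor), Stk10 (a kinase) and Cd9 (a tetraspanin), the last 5 with r of 0.998. Their log2 fold changes were 1.17 to 1.41, below the 2.66 of Crym. The 6 points share their groups and their cell makeup, and 1352 of the 10472 genes (12.9%) had an r of at least 0.9, so the values are a description. Among the members, r with Crym was 0.83 for Dio2, 0.69 for Slco1c1, 0.68 for Thrb, 0.11 for Dio3 and -0.93 for Thra, and in the pathway it was 0.98 for both Dio1 and Slc7a8.

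**Figure D4:**
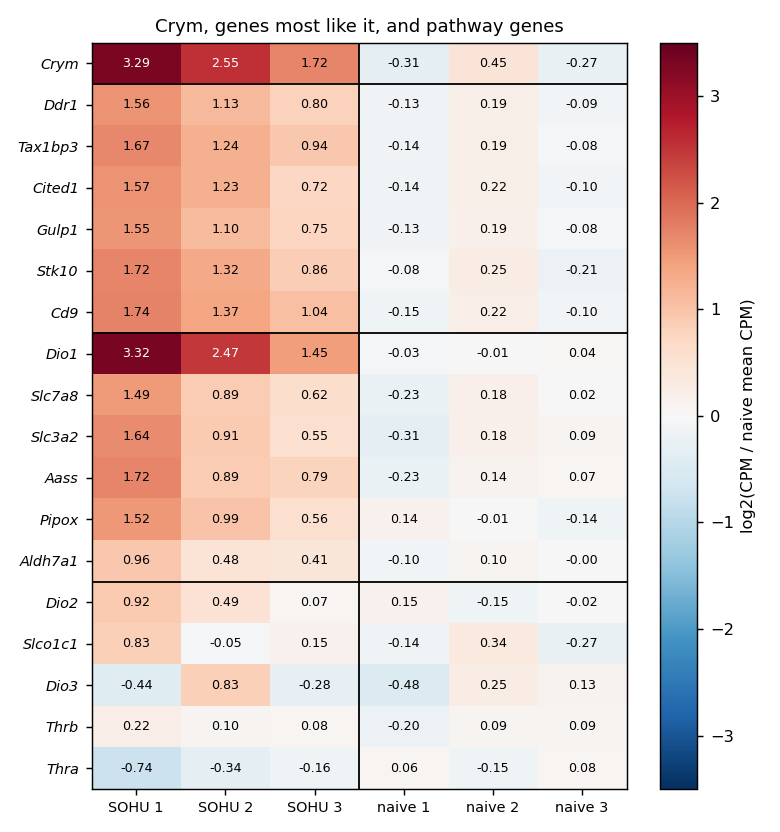
The log2 ratio of each library's CPM to the naive mean (colour and number in each cell) for Crym, the 6 genes most like it, 6 pathway genes that rose and the other 5 members, with SOHU libraries left of the naive ones. Crym (3.29, 2.55 and 1.72 in SOHU libraries 1 to 3) and Dio1 (3.32, 2.47 and 1.45) stand out, and Dio3 has its one high value, 0.83, in SOHU library 2.

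The neighbourhood of Crym held another gene that rose. Within 200 kb lie 8 annotated genes, of which 2 were tested, and both are named here after their values were seen. Tmem159, a lipid droplet protein gene 65.4 kb away, had 145.4 ± 49.7 CPM in SOHU libraries and 43.4 ± 5.48 CPM in naive libraries (SD, n = 3 each), a log2 fold change of 1.74 with a standard error of 0.24 (edgeR adjusted p = 0.00952). Anks4b, 0.8 kb away, had 0.871 ± 0.389 CPM in SOHU libraries and 0.184 ± 0.141 CPM in naive libraries (SD, n = 3 each), a log2 fold change of 2.22 that did not pass (adjusted p = 0.0562). Around the other members, none of the tested neighbours was called (1 at Dio2, 3 at Dio3, 12 at Thra, 1 at Thrb and 1 at Slco1c1), against 13.9% of all genes tested. Among them Dio3os, the antisense transcript 0.9 kb from Dio3, had 17.9 CPM in SOHU and 14.9 CPM in naive libraries, a log2 fold change of 0.27 (adjusted p = 0.435).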

How the data were processed

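Anti-HA pulldown RNA of retinas was sequenced in 6 libraries. The files deposited hold raw counts of reads for each gene; all 6 columns of the series table equalled the single files, and no column was left unused. The submitters' processing notes name bcl2fastq 2.17, Trim Galore, HISAT2, MultiQC and featureCounts and the build mm10, with no role or order; for strand use and annotation the sources used here give nothing. Symbols came from a reference table of gene identifiers (55154 of 55335 matched). Gene positions, exon overlaps and neighbours came from the deposited exon coordinates. Transcript sequences and their positions came from GENCODE M21, on the same build. Counts were fitted with the edgeR 4.0.16 quasi-likelihood test in R 4.3.3 (filterByExpr, TMM, robust, group as the only term), with Benjamini-Hochberg adjustment over 17687 genes and a threshold of 0.05. The filter kept at least 99.8% of each library's counts. CPM is scaled by the TMM-corrected library size; TPM uses the deposited exon length, and log2 CPM for likeness a prior count of 2. DESeq2 1.42.0, limma 3.58.1, other filters and scalings, each library left out and a replicate term were alternatives. The fit was tested on simulated data.

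The members and the gene lists were chosen with earlier results of these data known; 2 of the listed genes are not reported here and stay out of the list counts. Genes named were the members, the listed genes called, the gene with the highest mean TPM of each list, the 6 genes most like Crym and genes sharing exons with a member. Slc7a5, Ttr, Dhtkd1, Phykpl, Klf9, Hr, Me1, Nrgn, Sema7a, the opsin and retinoid X receptor genes, the untested plasma carriers, the marker genes, Shh's and Aldh7a1's overlapping genes, and the neighbours Tmem159, Anks4b and Dio3os were named after their values were seen. The lowest count of a member in any library was 129, for Dio3.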

Additional observations from a re-analysis of the deposited data

How the results depend on the processing

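The log2 fold change of Crym, 2.66, was 2.19 to 2.98 when each library was left out in turn and 3.79 when libraries were scaled to the ganglion cell markers. That scaling moves the median of all genes by 1.13; it called 12498 genes, 46 of the listed genes and 5 members, all 5 higher, and turned Thra to 0.72 and Thrsp to 1.05, while Shh no longer passed (adjusted p = 0.690). Leaving out each library in turn gave 0 to 3896 calls over all genes against 2467, 0 to 15 listed genes against 8, and 0 to 1 of the other members (Dio2, without SOHU library 3). No gene was called without naive library 1 or naive library 3, where edgeR still gave 3919 and 4251 genes an unadjusted p under 0.05; 336 were called without SOHU library 2 and 887 without naive library 2. DESeq2's Wald test called 3775 genes and 14 listed genes, and with no filter on low counts 13 listed genes were called. Wsb1 also passed with no filter (adjusted p = 0.00778) and with the replicate block (0.0380), and Trnau1ap with the stricter filter (0.0442). Log2 fold changes near 0 turned sign. Meg3 was -0.024 with no filter, -0.031 with limma-voom and -0.032 with the replicate block, and -0.13 to 0.25 over the fits without 1 library, below 0 without SOHU library 2 (-0.12), SOHU library 3 (-0.13), naive library 1 (-0.12) and naive library 2 (-0.05). Over the same fits Dio3 was -0.34 to 0.38, below 0 without SOHU library 2 (-0.34) and naive library 1 (-0.05), and Hdac3 was -0.020 to 0.53, below 0 without SOHU library 1. The causes were not tested. Same-numbered libraries deviated together with r of 0.163, 0.251 and 0.004, and library 3 of neither group correlated best with its own number, so the numbers were not taken as pairs; with the replicate block 2070 genes, 9 listed genes and 0 other members were called, Crym was 2.55, and Aldh7a1 did not pass (adjusted p = 0.0552). With 3 libraries a group and a common biological coefficient of variation of 22.3%, the precision of each fold change is limited by the spread between libraries.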
